A study of Homo sapiens with 6 samples.

Results

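The ATP-binding cassette (ABC) genes were examined in U251 cells, an established human glioblastoma line, with stable overexpression of XLOC013218, a long noncoding RNA, against control U251 cells, by RNA sequencing of 3 libraries per group. The members are the protein-coding genes whose current symbol is ABC followed by a subfamily letter from A to G and a number. All 45 such genes were listed among the 20330 Ensembl genes of each table, 12 in subfamily A, 9 in B, 11 in C, 4 in D, 1 in E, 3 in F and 5 in G. What the control cells carry in place of the transgene, the promoter that drives it, and whether either group comes from 1 clone are not given in the sources used here. XLOC013218 itself, and so the success of the overexpression, was not analysed here. All p-values measure the spread between these libraries, which may be in part technical. In bulk RNA, fewer cells that express a gene and less of its RNA per cell cannot be told apart.

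ABC proteins share a nucleotide-binding domain that uses ATP. Most members join it to membrane-spanning domains and move a substrate across a membrane: lipids and sterols in subfamilies A and G, drugs, conjugates and organic anions in B and C, and fatty acyl-CoA into peroxisomes in D. Subfamilies E and F have no membrane-spanning part and act with the ribosome and translation factors. In tumours the family is known for drug efflux, above all through ABCB1 (P-glycoprotein), ABCC1 (MRP1) and ABCG2 (BCRP). In brain, ABCA1 and the apolipoproteins that astrocytes secrete carry cholesterol out of cells.

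The values are FPKM, fragments scaled by transcript length and by the number of mapped fragments, so that levels of different genes can be compared per length. FPKM summed to between 614027 and 621922 over the Ensembl genes in the overexpression libraries, against 598683 to 620473 in the control libraries, and the ABC genes took between 0.0883% and 0.0962% of that sum. The glioma and astrocyte markers VIM, NES, SOX2 and GFAP were above 1 FPKM on average, whereas S100B, OLIG2 and ALDH1L1 were not. GFAP, an astrocyte filament protein, lay between 14.4 and 30.1 FPKM in overexpression libraries, against 34.7 to 46.0 FPKM in control libraries, without passing the test described below (limma adjusted p = 0.107). Its part in the results below was not tested. SOX2 was also lower without overlap, between 98.1 and 104.8 FPKM in overexpression libraries, against 113.8 to 118.7 FPKM in control libraries. VIM and NES overlapped between the groups. Groups without overlap were found for 18.9% of all genes tested below. The part of SOX2 was not tested. Most of the summed level of the 7 glioma markers came from VIM. The sum lay between 3702 and 3904 FPKM in overexpression libraries, against 3825 to 4247 FPKM in control libraries. Of the markers of other tissues, CD3E and APOB were listed at 0 throughout, PTPRC, EPCAM, CDH1, VWF, CDH5, ALB, SYP and RBFOX3 averaged under 1 FPKM. Above it were the neuron marker SNAP25 at 1.99 FPKM, the leukocyte marker CD14 at 1.06 FPKM and KRT18, which many cultured lines express, at 87.4 FPKM. PTPRC, a leukocyte marker, lay between 0.39 and 0.65 FPKM in overexpression libraries, against 0.13 to 0.17 FPKM in control libraries, while CD3E was at 0 and the 3 leukocyte markers summed to 1.26 to 1.74 FPKM in overexpression libraries, against 0.78 to 1.71 FPKM in control libraries. Its part was not tested either.

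A gene counted as expressed when its 6 libraries averaged 1 FPKM or more, and 22 of the 45 members reached that level (48.9%), against 57.6% of all listed genes. Subfamilies differed widely in how many members were expressed. All 3 F members and ABCE1 were expressed, with 3 of 4 in subfamily D, 5 of 9 in B, 6 of 11 in C, 4 of 12 in A and 0 of 5 in G. The cut fell at the lower edge of a gap. ABCA5 and ABCB4 averaged 0.953 and 0.892 FPKM just below it. The next members above it were ABCA1 at 2.29 FPKM and ABCC4 at 6.27 FPKM. Single libraries ran from 0.49 to 1.36 FPKM for ABCA5 and from 0.73 to 1.25 FPKM for ABCB4, on both sides of the cut. ABCA5 averaged 1.15 FPKM in overexpressing cells and 0.76 FPKM in control cells, so its group means lay on either side of the cut. Its libraries overlapped between the groups, and it did not pass when tested with no filter (limma adjusted p = 0.494). Grouped by where the proteins are known to act, a grouping made after the values were seen, 14 of 16 soluble, mitochondrial, peroxisomal and lysosomal members were expressed, against 8 of the 29 other members.

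**Figure D1:**
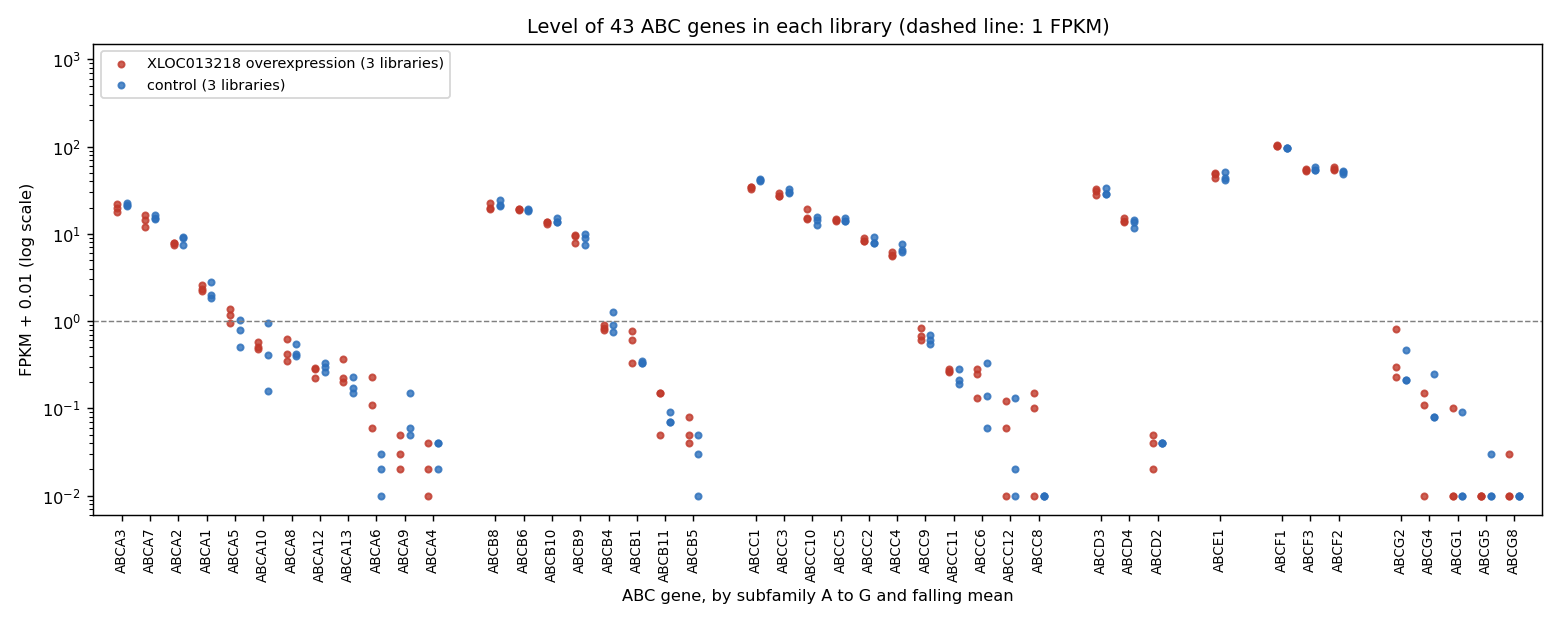
FPKM + 0.01 (log axis) of 43 ABC genes in each of 3 XLOC013218 overexpression libraries (red) and 3 control libraries (blue), ordered by subfamily and falling mean, with a dashed line at 1 FPKM. The 4 soluble genes ABCF1, ABCF3, ABCF2 and ABCE1 sit at the top, each subfamily from A to D holds members on both sides of the line, and every mean of subfamily G lies below it.

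The DNA before the transcription starts is shown because its CG content separated most expressed members from most others. RefSeq promoter windows (GRCh38.p14) could be matched for 35 of the 45 members, and the 250 bases before the 5′-most start were read 5′ to 3′ on the gene's strand. The expression tables carry no coordinates, so those given are RefSeq's. Capitals mark the dinucleotide CG. The first 2 belong to the most abundant member and to the ribosome-recycling factor ABCE1, the third to a CG-rich member just under 1 FPKM, the fourth to the expressed member with the fewest CG, the fifth to the bile salt pump of the liver, and the last 2 to the sterol transporter genes ABCG5 and ABCG8, whose windows face each other and share 131 bases.
ABCF1 (chr6:30571192-30571441, plus strand): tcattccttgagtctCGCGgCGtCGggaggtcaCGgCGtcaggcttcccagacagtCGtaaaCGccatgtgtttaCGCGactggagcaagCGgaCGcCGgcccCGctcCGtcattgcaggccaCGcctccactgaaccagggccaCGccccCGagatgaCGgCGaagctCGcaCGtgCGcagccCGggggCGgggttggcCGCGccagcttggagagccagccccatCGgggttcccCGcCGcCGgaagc
ABCE1 (chr4:145098061-145098310, plus strand): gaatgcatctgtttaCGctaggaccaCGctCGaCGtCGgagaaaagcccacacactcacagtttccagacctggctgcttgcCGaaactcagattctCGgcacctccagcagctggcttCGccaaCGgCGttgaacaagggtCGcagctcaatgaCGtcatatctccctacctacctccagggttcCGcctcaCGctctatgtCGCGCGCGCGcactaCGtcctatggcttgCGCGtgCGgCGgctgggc
ABCA5 (chr17:69327134-69327383, minus strand): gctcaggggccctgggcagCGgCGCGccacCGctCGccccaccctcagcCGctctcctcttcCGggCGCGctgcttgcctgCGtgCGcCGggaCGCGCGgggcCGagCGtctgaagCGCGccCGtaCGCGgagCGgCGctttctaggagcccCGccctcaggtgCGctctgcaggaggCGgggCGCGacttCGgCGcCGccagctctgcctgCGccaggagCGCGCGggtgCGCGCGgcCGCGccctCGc
ABCC2 (chr10:99782390-99782639, plus strand): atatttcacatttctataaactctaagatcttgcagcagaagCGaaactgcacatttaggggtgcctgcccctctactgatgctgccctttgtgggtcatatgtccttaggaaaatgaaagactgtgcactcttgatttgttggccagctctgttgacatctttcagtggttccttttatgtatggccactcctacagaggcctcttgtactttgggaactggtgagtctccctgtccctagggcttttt
ABCB11 (chr2:169031325-169031574, minus strand): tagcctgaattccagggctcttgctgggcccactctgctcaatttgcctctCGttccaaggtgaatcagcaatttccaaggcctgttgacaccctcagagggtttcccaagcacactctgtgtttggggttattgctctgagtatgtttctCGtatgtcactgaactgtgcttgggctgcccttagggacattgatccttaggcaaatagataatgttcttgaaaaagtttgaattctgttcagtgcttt
ABCG5 (chr2:43838840-43839089, minus strand): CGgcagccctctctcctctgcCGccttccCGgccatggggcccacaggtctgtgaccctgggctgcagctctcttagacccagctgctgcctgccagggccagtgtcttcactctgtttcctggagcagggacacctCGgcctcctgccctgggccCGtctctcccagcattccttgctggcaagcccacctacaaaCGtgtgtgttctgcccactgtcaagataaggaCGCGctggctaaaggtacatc
ABCG8 (chr2:43838721-43838970, plus strand): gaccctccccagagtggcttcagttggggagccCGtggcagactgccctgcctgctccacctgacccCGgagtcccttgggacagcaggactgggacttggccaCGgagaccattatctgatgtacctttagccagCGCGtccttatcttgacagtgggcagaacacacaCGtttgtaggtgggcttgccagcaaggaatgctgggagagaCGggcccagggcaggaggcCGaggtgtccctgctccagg

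The windows of the 18 expressed members held a median of 24.5 CG, with a range of 1 to 42, and those of the 17 members under 1 FPKM a median of 2, with a range of 0 to 42. Over all listed genes with a window the same split gave medians of 21 CG for 9445 genes at 1 FPKM or more and 6 CG for 5537 genes under it. At least 10 CG stood in 17 of the 18 expressed windows, against 4 of the 17 others, and in 87.0% of all expressed genes' windows, against 39.9% of the rest. ABCF1 had 31 CG, ABCE1 24, ABCB11 2, and ABCG5 and ABCG8 had 8 each. ABCC2 (MRP2), an organic anion pump, was the exception among the expressed members, with 1 CG at a mean level of 8.39 FPKM. The 4 CG-rich members under 1 FPKM were ABCA5, ABCC6, ABCG4 and ABCC9, with 42, 21, 19 and 15 CG. The motif TATAAA, searched on both strands, was found in 4 of the 18 expressed windows, ABCC2's among them, and in 2 of the 17 others. Over all listed genes it was in 5.04% of expressed genes' windows and in 15.8% of the rest. The motif GGGCGG, which overlaps the CG count and is the GC box that SP1 is known to bind, was found in 13 of the 18 expressed windows (72.2%) and 4 of the 17 others (23.5%). Over all listed genes it was in 68.3% of expressed genes' windows and in 37.5% of the rest. Of all RefSeq windows, 11.2% held TATAAA and 42.2% GGGCGG. These counts are descriptions of the windows, and 12 members have several annotated starts, so the start that U251 cells use may be another one. At the start with the most CG, ABCG2, ABCC11 and ABCB1 held 32, 24 and 12 CG, against 2, 0 and 1 at the 5′-most start, so that these 3 members under 1 FPKM would also pass 10 CG.

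**Figure D2:**
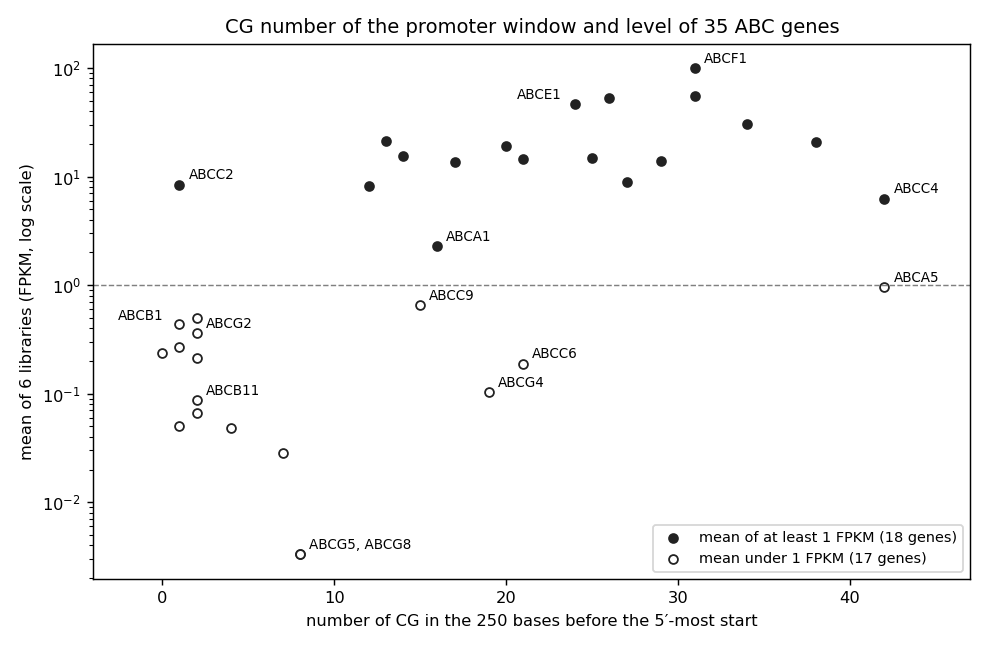
Number of CG dinucleotides in the 250 bases before the 5′-most RefSeq start (x axis) against the mean level over 6 libraries in FPKM (y axis, log scale) for the 35 ABC genes with a window, filled where the mean reached 1 FPKM. Filled points run from 12 to 42 CG except ABCC2 with 1, and open points lie at 8 CG or fewer except ABCC9, ABCG4, ABCC6 and ABCA5.

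Some members are direct neighbours among the protein-coding genes of the RefSeq assembly, and most of these groups lay under 1 FPKM together. ABCA8, ABCA9, ABCA6, ABCA10 and ABCA5 follow each other on chromosome 17 with mean levels of 0.450, 0.05, 0.0667, 0.502 and 0.953 FPKM. The neighbours ABCC12 and ABCC11 on chromosome 16 averaged 0.0483 and 0.238 FPKM, ABCG5 and ABCG8 on chromosome 2 averaged 0.00333 FPKM each, and ABCB4 and ABCB1 on chromosome 7 averaged 0.892 and 0.442 FPKM. ABCC1 and ABCC6, adjacent on chromosome 16, were the exception, at 37.8 and 0.188 FPKM. ABCC6 has near-identical pseudogene copies, so its low level is uncertain.

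The groups were compared with limma on log2(FPKM + 1), with the p adjusted over all 11704 genes that averaged at least 1 FPKM and a threshold of 0.05. Fold changes are overexpression minus control on that log2 scale, which understates the change of low genes. Of the 22 tested members, 0 passed, where 61 of all tested genes did (0.521%). Those 61 split into 37 higher and 24 lower in overexpressing cells. On the TPM scale 61 genes passed as well, 50 of them shared with the first 61, and they split into 30 higher and 31 lower. At an unadjusted limma p under 0.05 there were 4 members (18.2%), among them ABCC1, ABCF2 and ABCF1, beside 12.7% of all tested genes. The same 4 were those whose groups did not overlap, 18.2% of the members beside 18.9% of all tested genes. Of the 22, 11 had a higher and 11 a lower mean log2 level in overexpressing cells. Their median log2 fold change was 0.00081, against -0.00078 over all tested genes, and single members ran from -0.29 to 0.19.

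**Figure D3:**
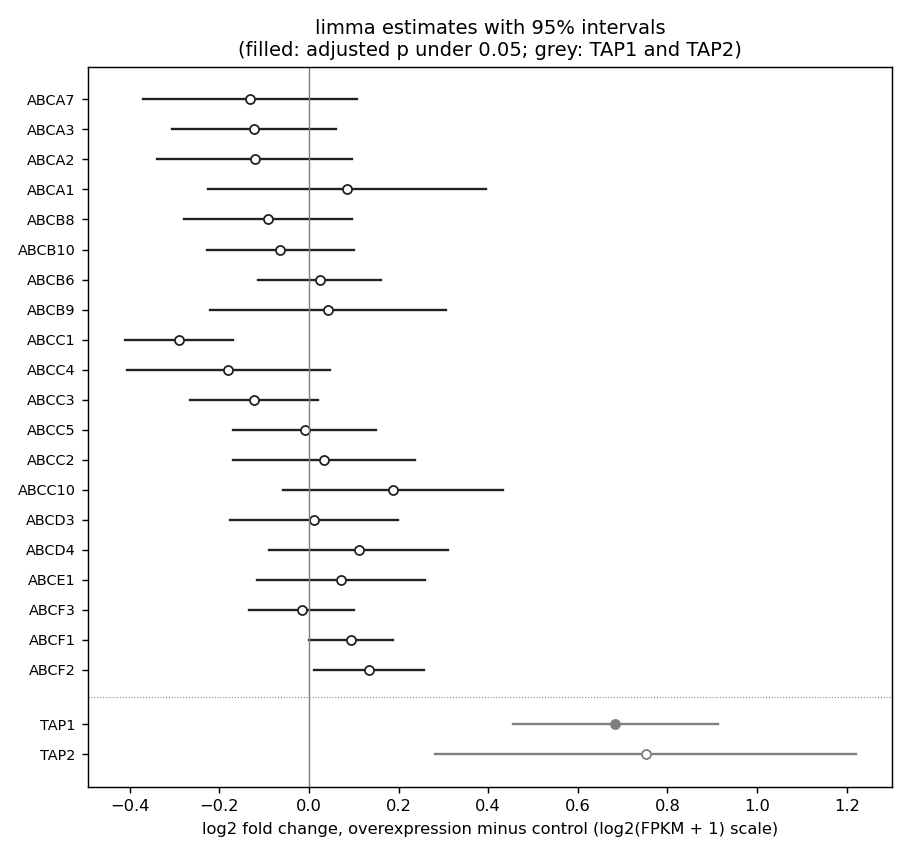
limma log2 fold change, overexpression minus control, with its 95% interval for 20 of the 22 tested ABC genes by subfamily (black) and for TAP1 and TAP2 (grey), filled where the adjusted p was under 0.05. The 20 estimates lie between -0.29 (ABCC1) and 0.19 (ABCC10) and none is filled, while TAP1 at 0.68 is filled and TAP2 at 0.75 is not.

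Among the drug and organic anion exporters, 6 of 9 were expressed. ABCC1 (ENSG00000103222), the multidrug resistance protein that pumps glutathione conjugates and many drugs, stood highest of them. It had 32.94, 34.58 and 34.26 FPKM in overexpression replicates 1 to 3, against 41.94, 42.93 and 40.32 FPKM in control replicates 1 to 3. Every overexpression value lay below every control value, and the means were 33.9 ± 0.869 FPKM in overexpressing cells and 41.7 ± 1.32 FPKM in control cells (SD, n = 3 each). The log2 fold change was -0.29 (SE 0.05, 95% interval -0.41 to -0.17), and limma gave an adjusted p of 0.0535, just outside the threshold and rank 81 of 11704. With array quality weights the limma adjusted p was 0.0224 and after rescaling to TPM 0.0453, so both of these passed. Over all alternatives the adjusted p in limma reached at most 0.246, and the log2 fold change lay between -0.31 and -0.27.

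The other expressed exporters of subfamily C did not pass either. ABCC3 (MRP3), an exporter of glucuronides, had 27.31, 27.42 and 29.70 FPKM in overexpression replicates, against 29.42, 32.42 and 30.35 FPKM in control replicates. Its groups overlapped through overexpression replicate 3, with a log2 fold change of -0.12 (SE 0.06; adjusted p in limma 0.469). ABCC4 (MRP4), which exports cyclic nucleotides, had 5.59, 6.18 and 5.65 FPKM in overexpression replicates, against 6.17, 6.45 and 7.56 FPKM in control replicates, and overexpression replicate 2 stood just above control replicate 1. Its log2 fold change was -0.18 (SE 0.10; adjusted p in limma 0.5099). ABCC10 (MRP7) averaged 16.4 ± 2.42 FPKM in overexpressing cells and 14.2 ± 1.35 FPKM in control cells, and ABCC5 (MRP5) 14.3 ± 0.445 FPKM in overexpressing cells and 14.4 ± 0.745 FPKM in control cells (SD, n = 3 each). ABCC2 averaged 8.49 ± 0.427 FPKM in overexpressing cells and 8.29 ± 0.739 FPKM in control cells. The summed level of subfamily C lay between 106.98 and 109.26 FPKM in overexpression libraries, against 114.92 to 119.14 FPKM in control libraries, without overlap. Subfamily F was the other one whose sums did not overlap, with the higher sums in overexpression libraries. In subfamily C, ABCC1 had the widest gap between its group means. It was the only 1 of the 6 tested members there whose groups did not overlap (16.7%, beside 18.9% of all tested genes). Of these 6, 2 averaged higher in overexpressing cells, ABCC10 and ABCC2, so the sums do not show a shift shared by the subfamily.

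The other classic drug pumps were barely detected. ABCB1 (ENSG00000085563) had 0.32, 0.60 and 0.75 FPKM in overexpression replicates, against 0.32, 0.34 and 0.32 FPKM in control replicates. Overexpression replicates 2 and 3 stood above all control values and replicate 1 was at the lowest of them. ABCG2 (ENSG00000118777), the most abundant member of subfamily G, had 0.29, 0.80 and 0.22 FPKM in overexpression replicates, against 0.46, 0.20 and 0.20 FPKM in control replicates, and the groups overlapped. Neither entered the test, since both averaged under 1 FPKM. When every listed gene above 0 was tested, limma gave adjusted p = 0.504 for ABCB1 and 0.802 for ABCG2. Only 1 of all 17559 genes in that fit passed the threshold. ABCC11, the remaining exporter of the group, had 0.26, 0.25 and 0.27 FPKM in overexpression replicates, against 0.18, 0.20 and 0.27 FPKM in control replicates.

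**Figure D4:**
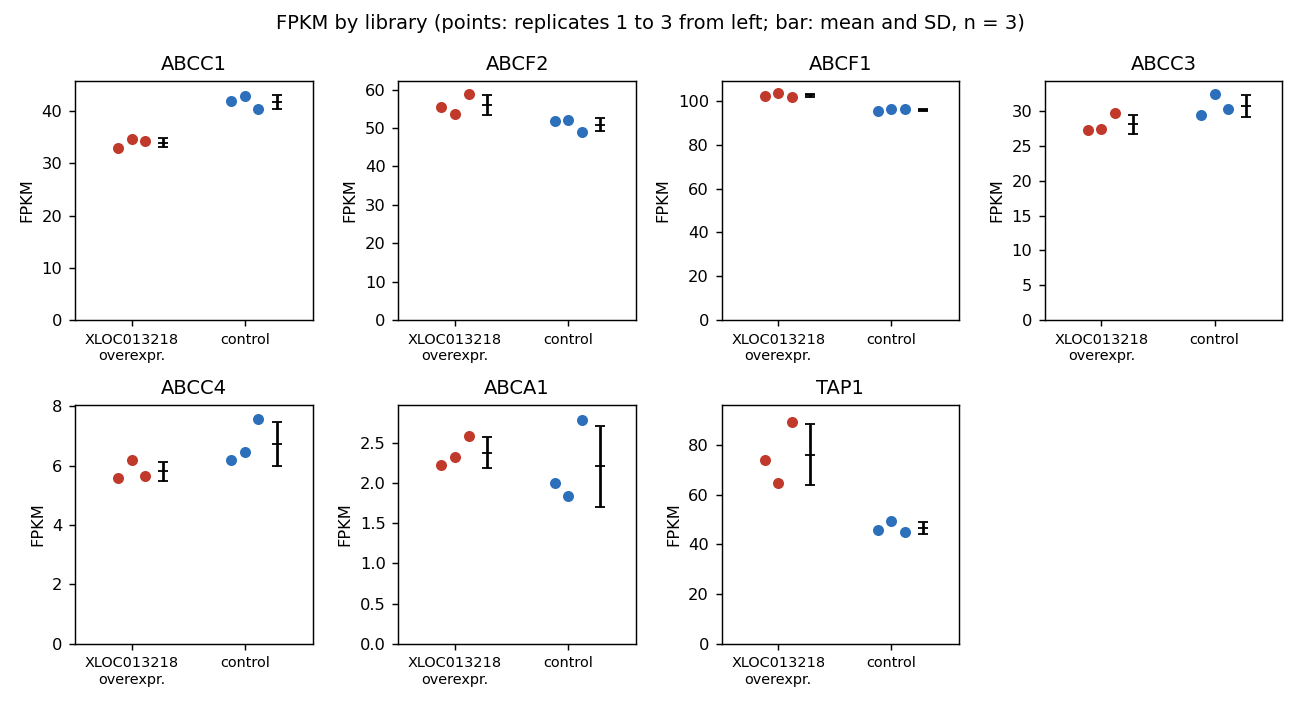
FPKM by library for 6 ABC genes and TAP1, with replicates 1 to 3 from left to right in XLOC013218 overexpression (red) and control (blue) and the mean and SD as a bar (n = 3 each). The groups are apart for ABCC1, which is lower in overexpression libraries, and for ABCF2, ABCF1 and TAP1, which are higher there, and they overlap for ABCC3, ABCC4 and ABCA1; of these 7 genes only TAP1 passed the threshold.

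The soluble members were the most abundant and carried 45.1% of the family's summed FPKM. The summed level of subfamily F lay between 211.74 and 213.78 FPKM in overexpression libraries, against 200.62 to 202.81 FPKM in control libraries, without overlap. Of its 3 members, 2 averaged higher in overexpressing cells and 1, ABCF3, lower, so the sums do not show a shift shared by the subfamily. The groups were apart for 2 of the 3, ABCF1 and ABCF2 (66.7%, beside 18.9% of all tested genes). ABCF1 (ENSG00000204574), which binds the initiation factor eIF2, had 102.31, 103.48 and 101.97 FPKM in overexpression replicates, against 95.53, 96.41 and 96.11 FPKM in control replicates. Every overexpression value lay above every control value in tight groups, with a log2 fold change of 0.09 (SE 0.04, 95% interval 0.00079 to 0.19, limma adjusted p = 0.393). ABCF2 (ENSG00000033050), a close relative of ABCF1, had 55.43, 53.69 and 58.80 FPKM in overexpression replicates, against 51.75, 52.06 and 48.94 FPKM in control replicates. These groups were apart too, with a log2 fold change of 0.13 (SE 0.05; adjusted p in limma 0.357). ABCF2 and ABCB10 have near-identical pseudogenes, so their levels are uncertain where reads were shared. ABCF3, whose yeast relative Gcn20 acts in amino acid sensing, averaged 54.5 ± 1.44 FPKM in overexpressing cells and 55.1 ± 2.32 FPKM in control cells (SD, n = 3 each). ABCE1 (ENSG00000164163), which splits ribosomes after termination, had 43.74, 49.00 and 49.79 FPKM in overexpression replicates, against 44.07, 41.01 and 50.68 FPKM in control replicates. Its groups overlapped fully and its log2 fold change was 0.07 (SE 0.08; adjusted p in limma 0.780). Between neighbours in the order of levels, ABCF1 lay above all other members in each library, while ABCF3 and ABCF2 overlapped in range, at 53.01 to 57.76 FPKM and 48.94 to 58.80 FPKM.

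In subfamily D, the peroxisomal member ABCD2 was at 0.0283 FPKM on average. ABCD3 (PMP70), the most abundant member of subfamily D, had 27.51, 32.67 and 30.98 FPKM in overexpression replicates, against 28.33, 28.95 and 33.16 FPKM in control replicates. Its groups overlapped, and its log2 fold change of 0.01 (SE 0.08; adjusted p in limma 0.970) turned negative when the values were rescaled to TPM. ABCD4, which works with LMBRD1 in the lysosomal export of cobalamin, averaged 14.2 ± 0.744 FPKM in overexpressing cells and 13.1 ± 1.36 FPKM in control cells (SD, n = 3 each).

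The 4 mitochondrial members were all expressed, within a narrow range of means from 13.9 to 21.4 FPKM. ABCB8, a transporter of the inner membrane, had 22.71, 20.02 and 19.32 FPKM in overexpression replicates, against 20.78, 24.15 and 21.38 FPKM in control replicates. The groups overlapped, with a log2 fold change of -0.09 (SE 0.08; adjusted p in limma 0.705). ABCB6, a porphyrin transporter, averaged 19.1 ± 0.3005 FPKM in overexpressing cells and 18.7 ± 0.529 FPKM in control cells. ABCB10, which takes part in haem synthesis, averaged 13.5 ± 0.401 FPKM in overexpressing cells and 14.2 ± 0.846 FPKM in control cells (SD, n = 3 each). For these 4 genes the log2 fold changes lay between -0.09 and 0.02. ABCB9, a lysosomal peptide transporter related to TAP1, averaged 9.04 ± 0.992 FPKM in overexpressing cells and 8.77 ± 1.25 FPKM in control cells.

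Among the lipid transporters of subfamily A, ABCA3 was the most abundant. ABCA3, known for loading surfactant lipid into the lamellar bodies of lung cells, had 21.92, 17.75 and 19.98 FPKM in overexpression replicates, against 21.03, 21.46 and 22.53 FPKM in control replicates. The groups overlapped through overexpression replicate 1, with a log2 fold change of -0.12 (SE 0.08; adjusted p in limma 0.584). ABCA7, a phospholipid transporter linked to Alzheimer's disease risk, had 14.45, 11.93 and 16.32 FPKM in overexpression replicates, against 14.97, 15.24 and 16.55 FPKM in control replicates, with overlap. ABCA2, a lysosomal member abundant in oligodendrocytes, averaged 7.71 ± 0.229 FPKM in overexpressing cells and 8.51 ± 0.964 FPKM in control cells (SD, n = 3 each).

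Of the cholesterol exporters, ABCA1 (ENSG00000165029), which loads apolipoproteins with cholesterol, had 2.22, 2.32 and 2.59 FPKM in overexpression replicates, against 2.00, 1.84 and 2.78 FPKM in control replicates. The overexpression values all lay within the control range, and the log2 fold change was 0.08 (SE 0.14, 95% interval -0.23 to 0.40, limma adjusted p = 0.849). ABCG1 (ENSG00000160179), which passes cholesterol to lipoprotein particles, was listed at 0.09, 0 and 0 FPKM in overexpression replicates, against 0.08, 0 and 0 FPKM in control replicates. ABCG5 and ABCG8, the intestinal and liver sterol pumps, were each listed above 0 in 1 library, at 0.02 FPKM.

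The other members under 1 FPKM include the sulfonylurea receptors ABCC8 and ABCC9, which regulate potassium channels, the keratinocyte lipid transporter ABCA12, the retinal transporter ABCA4 and the bile salt pump ABCB11. When all 23 members under 1 FPKM were tested with no filter, 0 passed in limma and 1 had an unadjusted p under 0.05. Only 1 of all 17559 genes in that fit passed, so the 0 is not particular to these members. The share of all genes with an unadjusted p under 0.05 in that fit was not counted. The 1 member was ABCA6, at 0.10, 0.05 and 0.22 FPKM in overexpression replicates, against 0, 0.02 and 0.01 FPKM in control replicates (limma adjusted p = 0.409). These values lie near 0. No member was listed at 0 in all 6 libraries, and 9 were listed at 0 in at least 1. Over all genes, between 21.5% and 21.9% were listed at 0 in overexpression libraries, against 22.6% to 23.3% in control libraries, and the part of this in the values of low members was not tested.

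TAP1, TAP2 and CFTR belong to the same superfamily by sequence but carry other symbols, and 1 of them passed. TAP1 (ENSG00000168394), a chain of the transporter that feeds peptides to class I molecules, had 74.19, 64.95 and 89.44 FPKM in overexpression replicates, against 45.64, 49.36 and 45.06 FPKM in control replicates. It rose by a log2 fold change of 0.68 (SE 0.10, 95% interval 0.46 to 0.91, limma adjusted p = 0.0301), and its interval lies above the estimates of all 22 tested members. The call was lost in 7 of 14 alternatives, among them each fit without 1 control replicate and the fit without overexpression replicate 1 (limma adjusted p = 0.0798), while the log2 fold change lay between 0.56 and 0.79. TAP2, the partner chain, had 66.51, 51.18 and 88.45 FPKM in overexpression replicates, against 36.84, 52.51 and 31.64 FPKM in control replicates. Overexpression replicate 2 and control replicate 2 overlapped, and the log2 fold change of 0.75 (SE 0.21) did not pass (limma adjusted p = 0.1697). CFTR, the chloride channel, stood at 0.29, 0.20 and 0.02 FPKM in overexpression replicates, against 0, 0.03 and 0 FPKM in control replicates.

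The promoter windows of TAP1 and TAP2 both held GAAA followed by any 2 bases and a second GAAA, searched on both strands, the core of the element that interferon regulatory factors are known to bind. The same motif was found in 3.07% of all RefSeq windows, in 2.30% of the windows of all expressed genes, and in those of the members ABCC2 and ABCA9. Its part in the levels of TAP1 and TAP2 was not tested. The TAP1 window (GRCh38.p14) is printed with its 2 matches, which overlap and read as the reverse complement, in capitals.
TAP1 (chr6:32853705-32853954, minus strand): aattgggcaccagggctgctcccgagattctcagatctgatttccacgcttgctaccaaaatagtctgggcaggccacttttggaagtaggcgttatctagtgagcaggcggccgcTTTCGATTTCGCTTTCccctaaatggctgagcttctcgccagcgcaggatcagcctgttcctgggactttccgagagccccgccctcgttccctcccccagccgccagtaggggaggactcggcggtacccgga

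Genes that work with the members were examined in 10 lists, by role. Of their 101 tested genes 0 passed in limma, 20 had an unadjusted p under 0.05 (19.8%, beside 12.7% of all tested genes), and the median log2 fold change was 0.00086. For cholesterol balance, 15 genes were tested with a median of -0.07. SREBF1, a lipid synthesis regulator, averaged 205 ± 17.3 FPKM in overexpressing cells and 233 ± 14.2 FPKM in control cells (limma adjusted p = 0.301). For the regulators of drug transporter genes (8 tested, median -0.04), YBX1, a Y-box binding protein, averaged 1245 ± 41.5 FPKM in overexpressing cells and 1299 ± 49.6 FPKM in control cells. The glutathione list, whose conjugates ABCC1 exports, had 14 tested genes, 5 higher and 9 lower in overexpressing cells, and a median of -0.06. In it GSTM3, a glutathione transferase, had 60.58, 57.27 and 56.30 FPKM in overexpression replicates, against 73.62, 70.59 and 67.53 FPKM in control replicates. GSTA4, a transferase for lipid aldehydes, had 13.58, 13.42 and 14.26 FPKM in overexpression replicates, against 18.38, 15.89 and 16.66 FPKM in control replicates. Both genes had groups apart, lower in overexpressing cells, and did not pass (limma adjusted p = 0.0654 and 0.160). GCLM, a subunit of the enzyme that starts glutathione synthesis, lay the other way at 44.7 ± 0.760 FPKM in overexpressing cells and 40.4 ± 1.42 FPKM in control cells, and did not pass either (limma adjusted p = 0.290). The groups were apart for 4 of the 14 genes (28.6%, beside 18.9% of all tested genes), these 3 among them.

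For the translation partners of ABCE1 and the F members (12 tested, median 0.07), EIF2S1, the alpha subunit of eIF2, averaged 156 ± 13.95 FPKM in overexpressing cells and 135 ± 6.03 FPKM in control cells and EIF1AX, which acts in start codon scanning, 50.7 ± 3.31 FPKM in overexpressing cells and 45.2 ± 1.14 FPKM in control cells (limma adjusted p = 0.252 and 0.303). The iron-sulfur and haem list (16 tested, median 0.02) was led by HSPA9, the mitochondrial chaperone, at 228 ± 12.2 FPKM in overexpressing cells and 201 ± 9.13 FPKM in control cells, and FECH, which inserts iron into haem, at 15.3 ± 1.66 FPKM in overexpressing cells and 18.2 ± 1.47 FPKM in control cells (limma adjusted p = 0.205 and 0.322). The peroxisome list (16 tested, median 0.01) was led by ACSL3 and HACL1, with log2 fold changes of 0.18 and 0.16, and the cobalamin list (8 tested, median -0.05) by MMAB and MMADHC, with -0.31 and 0.11. KCNJ8, the only tested channel partner of ABCC8 and ABCC9, had a log2 fold change of 0.12 (limma adjusted p = 0.844). The partners of TAP1 and TAP2 had the highest median of these lists (6 tested, 0.21), with B2M and CALR just outside the threshold (limma adjusted p = 0.0513 and 0.0535). The vault list (5 tested) had a median log2 fold change of -0.10, which was the value of VIM (limma adjusted p = 0.541). VIM is also one of the glioma markers given above, so this median does not describe vault genes alone. MVP, the major vault protein, averaged 73.7 ± 0.452 FPKM in overexpressing cells and 80.8 ± 3.20 FPKM in control cells (log2 fold change -0.13, limma adjusted p = 0.301).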

How the data were processed

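The labels describe poly(A)-selected, stranded libraries from DNase-treated total RNA, while the series' design text speaks of cytoplasmic RNA without such selection, and the contradiction could not be settled here. Cufflinks 2.2.1, RSEM 1.3.1, TopHat, Bowtie, edgeR and the build hg18 are named in the submitters' processing notes with no role. The authors deposited 1 table of FPKM per library, and no source used here says whether counting used strand. Reads from members and antisense or near-identical genes may therefore be mixed.

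Symbols were matched to 19447 of 20330 identifiers, and gene types were taken from GENCODE 29. Assembled XLOC loci were not used. Read totals are unknown, and steps between low values gave no stable relative depth: overexpression replicate 1 came out at 0.779 or 1.03 of control replicate 2 with the lowest value used set to 0.1 or 0.3 FPKM. No pair of libraries was a duplicate (at most 2.06% identical values above 0). limma 3.58.1 in R 4.3.3 (limma-trend, two-sided, Benjamini-Hochberg over 11704 genes) compared the groups on log2(FPKM + 1), and was first tested on simulated data. An exact permutation test of 3 against 3 libraries cannot go below p = 0.1. Other values were computed with Python 3.11.15 and pandas 2.3.3.

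The members, the partner lists and the tests were chosen with earlier results of these data known. Values per library are given for the most abundant member of each subfamily, the 6 members with the lowest p, ABCB1, ABCC1, ABCG2, ABCA1, ABCG1, TAP1, TAP2 and CFTR, and of each list the 2 genes with the lowest p are named. A few genes that these rules select are not reported here. GCLM and the other members named with their values were chosen after seeing them. The alternatives changed the scaling, pseudocount, filter, variance model, weights, membership or libraries, and the choice of start in the promoter windows was added after seeing the data. No pairing of the libraries by replicate number was visible: the deviations of same-numbered libraries correlated at -0.04, -0.06 and 0.05. These correlations cannot show whether same-numbered libraries were prepared together.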

Additional observations from a re-analysis of the deposited data

How the results depend on the processing

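The number of expressed members stayed between 22 and 26 under every alternative, and the median log2 fold change of the tested members between -0.03 and 0.03. The number of members past the threshold was 0 except for 1 (ABCC1) after rescaling to TPM, 1 (ABCC1) with array quality weights, and 1 (TAP1) when TAP1, TAP2 and CFTR were counted in. The number of all tested genes past it was 61, against 1 without a filter, 1 with limma's trend off, 196 with array quality weights and 1 to 60 with 1 library left out. With the replicate number as a block it was 19, of which 15 were among the 61, and whether the numbers pair the libraries is not known. Of 182 refits of 13 named genes, 168 kept direction and call, 2 gained the call (ABCC1), 7 lost it (TAP1) and 5 changed direction, all for ABCD3. Its log2 fold change was -0.0029 after rescaling to TPM and -0.041 to 0.079 with 1 library left out. TAP1's adjusted p in limma was 0.174 with no filter, 0.133 without a trend, 0.0672 with the block and 0.0987 to 0.106 without 1 control replicate. With the start that holds the most CG in place of the 5′-most, the median was 25.5 CG for expressed members and 8 CG for the others. The cause of these changes was not tested. Read depth is unknown, so no limit of detection can be given for the members under 1 FPKM.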
